A study of Mus musculus with 7 samples.

Results

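This account covers 9 genes that lengthen or desaturate fatty acids in mouse liver, the elongases Elovl1, Elovl2, Elovl3, Elovl5, Elovl6 and Elovl7 and the desaturases Fads1, Fads2 and Fads3, taken by symbol from the 24421 genes of the deposited count table. All 9 had reads in every library and all 9 passed the filter on low counts. The study compared poly(A) RNA from the livers of C57BL/6 mice aged 36 weeks. Each mouse had been given diethylnitrosamine (DEN), a carcinogen that hepatocytes activate, at 25 mg/kg into the abdomen at 2 weeks of age, and was afterwards fed chow of 60% fat over 32 weeks. The 3 control libraries came from Prkciflox/flox mice, which carry the floxed Prkci alleles and no Cre by their label. The other 4 libraries are labelled Prkciflox/floxAlbCre, in which Cre under the albumin promoter is meant to act in hepatocytes. Which liver cells lost the gene was not tested. Prkci codes for an atypical protein kinase C. There was no group without DEN or without the fat-rich diet, and the labels do not say whether tumour or non-tumour tissue was taken.

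Fatty acid elongation takes place in the endoplasmic reticulum as a cycle of condensation, reduction, dehydration and a second reduction, and the Elovl enzymes carry out the condensation that sets which chains are lengthened. Elovl1, Elovl3, Elovl6 and Elovl7 act mainly on saturated and monounsaturated chains, while Elovl2 and Elovl5 act on polyunsaturated chains. Fads2 and Fads1 introduce double bonds on either side of an Elovl5 step on the route from the dietary essential fatty acids to arachidonic and docosahexaenoic acid, for which the liver is a main site. Fads3 is a related desaturase that acts on sphingoid bases. Several of these genes are known targets of SREBP-1c, LXR and PPAR alpha in liver.

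Promoter windows are shown for the member that differed between the groups, Elovl7, and for Elovl6 and Elovl5, a member of the same and a member of the other substrate class that did not pass the test. Each runs from 250 bases before to 50 bases after a RefSeq start site on GRCm38.p6, the assembly of mm10, read 5′ to 3′ on the plus strand of its chromosome. Capitals mark matches to the motifs searched on both strands, which were the GC box GGGCGG, the NF-Y box CCAAT, the E-box CACGTG, the cAMP response element TGACGTCA, the SREBP site TCACNCCAC, the DR1 repeat of the PPAR type, the antioxidant element TGACNNNGC, the TATA box TATAAA and the AP-1 site TGANTCA.
Elovl7, chr13:108214154-108214453: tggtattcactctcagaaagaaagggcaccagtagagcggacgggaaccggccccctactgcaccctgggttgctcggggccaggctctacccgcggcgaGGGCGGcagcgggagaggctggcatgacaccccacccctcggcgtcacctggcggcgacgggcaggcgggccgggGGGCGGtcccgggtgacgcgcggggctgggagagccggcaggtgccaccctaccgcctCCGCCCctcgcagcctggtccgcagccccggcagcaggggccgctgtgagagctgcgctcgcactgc
Elovl6, chr3:129532136-129532435: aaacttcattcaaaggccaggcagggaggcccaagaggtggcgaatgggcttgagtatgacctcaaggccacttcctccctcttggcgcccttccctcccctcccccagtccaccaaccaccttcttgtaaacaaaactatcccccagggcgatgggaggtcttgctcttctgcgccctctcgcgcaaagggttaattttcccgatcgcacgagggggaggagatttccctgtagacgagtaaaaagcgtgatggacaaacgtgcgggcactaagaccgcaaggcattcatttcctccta
Elovl5, chr9:77917115-77917414: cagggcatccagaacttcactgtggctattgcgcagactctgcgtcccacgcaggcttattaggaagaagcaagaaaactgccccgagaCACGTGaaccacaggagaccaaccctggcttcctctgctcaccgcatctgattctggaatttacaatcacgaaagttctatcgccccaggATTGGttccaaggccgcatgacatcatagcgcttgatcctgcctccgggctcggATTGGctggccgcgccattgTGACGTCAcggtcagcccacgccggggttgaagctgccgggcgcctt
The Elovl7 window held 3 GC boxes, whose first bases lie at -150, -75 and -17 from the start site, and none of the other motifs. A GC box is in 35.7% of the 32851 promoter windows of the table. The Elovl6 window matched none of the motifs. Elovl5 had CCAAT boxes on the minus strand at -71 and -17, an E-box at -161 and a cAMP response element at 4, motifs that stand in 37.4%, 7.15% and 1.79% of all windows. The SREBP site was in 1.24% of all windows and in 0 of the 9 windows found for 7 of the 9 members, which says only that these letters are not in these windows. The Elovl7 window was 74.0% G and C, against a median of 52.7% over all windows.

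Reads assigned to genes came to 23807580 to 26556486 per control library and 28695455 to 49203615 per library labelled knockout. Prkci itself was at 20.4 to 27.7 CPM (reads scaled to library size with TMM factors) in the controls and 28.2 to 30.7 CPM in the libraries labelled knockout, so its count over the whole gene was not that of a loss and every direction below rests on the labels. Controls 1 and 2 stood apart from control 3. The 29 acute phase genes took 18.1% and 18.2% of their reads. In control 3 that share was 5.89%, and those labelled knockout spanned 5.23% to 6.31%. Hepatocyte markers summed to 88870 to 117829 CPM in the controls and 70059 to 80320 CPM in the libraries labelled knockout, 11 of 12 listed markers being in the table, and albumin was the most abundant of them. The p-values below measure the spread between these libraries, which may be technical where libraries do not come from separate animals, since the labels name a mouse as the source but number no animals.

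Elovl7 was the member that rose in the libraries labelled knockout. It encodes an elongase of saturated and monounsaturated long chains and is gene ENSMUSG00000021696.9, protein coding (mm10, chromosome 13, 108214404 to 108285683, plus strand). Controls 1 to 3 held 11, 13 and 36 reads of it, or 0.557, 0.610 and 1.28 CPM. The libraries labelled knockout 1 to 4 held 1458, 269, 432 and 418 reads, or 27.3, 7.16, 14.1 and 10.4 CPM. The lowest library labelled knockout thus lay above the highest control, and control 3 was the highest of the controls. The means were 0.816 ± 0.404 CPM (SD, n = 3) and 14.7 ± 8.82 CPM (SD, n = 4).

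The fitted log2 fold change of Elovl7 was 4.13 (SE 0.60; 95% interval 2.74 to 5.52), a 17.5-fold difference that passed edgeR's quasi-likelihood test (p adjusted by Benjamini-Hochberg across 13638 genes = 0.024). It ranked 9th by fold among the 172 genes called higher. Over all genes tested 2.21% were called in either direction, 1.26% of them higher and 0.953% lower in the libraries labelled knockout, and of the 9 members 1 was called, higher. In bulk tissue, more cells that express a gene and more RNA per cell cannot be told apart. The call depended on the libraries used. The fold stayed within log2 3.65 to 4.65 when each library was left out in turn, but the gene missed the threshold in 4 of these 7 fits. Omitting control 1 gave an adjusted p in edgeR of 0.113 (0.255% of all genes called), omitting control 2 gave 0.118 (0.221% called), omitting knockout 3 gave 0.0658 (0.405% called) and omitting knockout 4 gave 0.0585 (0.498% called). It passed when control 3, knockout 1 or knockout 2 was omitted, fits that called 9.32%, 0.573% and 3.19% of all genes.

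**Figure D1:**
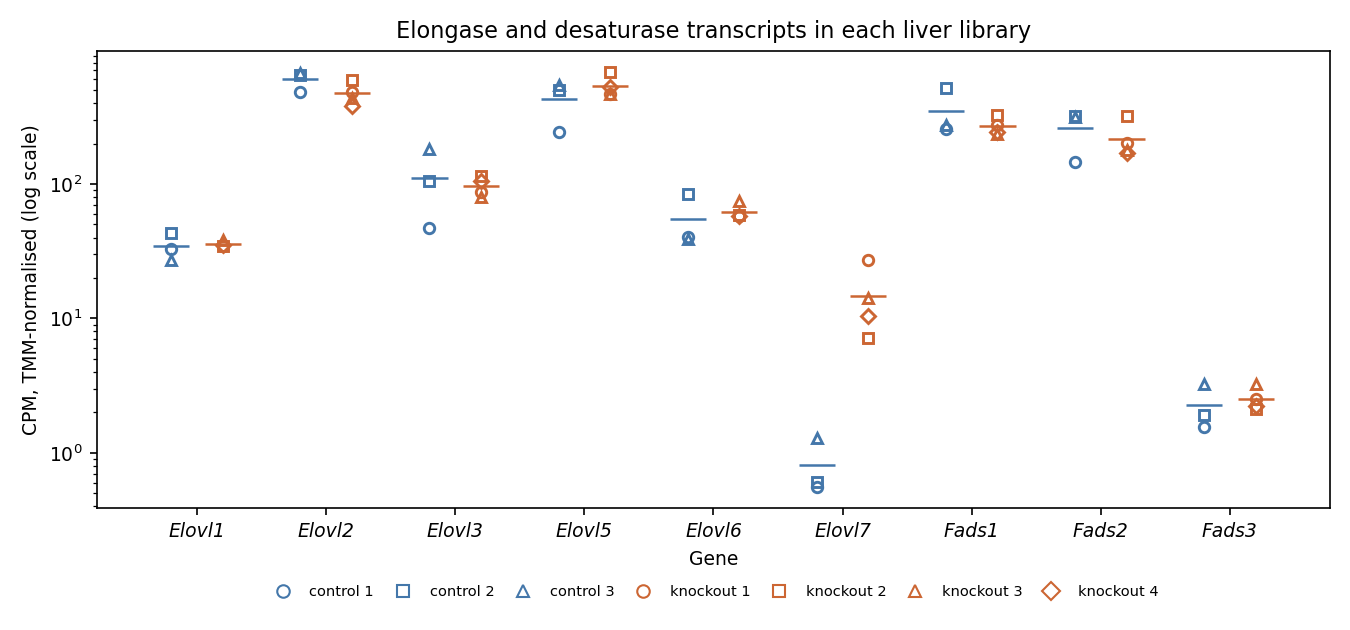
Each point is the level of a gene in 1 library, as TMM-normalised CPM on a log axis, with controls on the left and libraries labelled knockout on the right of each gene, and short lines mark group means. Elovl7 is the gene whose groups do not overlap, at 0.557 to 1.28 CPM against 7.16 to 27.3 CPM.

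Against control 3 alone the log2 fold change of Elovl7 was 3.52 (edgeR adjusted p = 0.385), in a fit that takes this single control to vary like the other group and called 0.0612% of all genes. An acute phase covariate gave 3.71 (edgeR adjusted p = 0.120) and called 0.902% of all genes. With a replicate block, which called 0.543%, the gene passed, although the numbers are not said to pair animals. Knockout 4 shares its number with no control, so that fit draws no genotype contrast from it. In DESeq2, which called 7.64% of the genes it tested, Elovl7 passed (adjusted p = 6.1e-17), and in limma-voom, which called 1% of genes, it did not (log2 fold change 4.05, adjusted p = 0.155).

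Among the libraries labelled knockout, Elovl7 varied more than most genes. Its highest value, in knockout 1, was 3.81 times its lowest, in knockout 2, and on the log2 scale of CPM plus 0.5 its range within that group exceeded that of 98.5% of the genes tested. Knockout 1 is also the library in which Scd2, a stearoyl-CoA desaturase that is low in normal liver, was at 61.8 CPM, while it was at 9.59 to 12.7 CPM in the other 3 and at 8.96 to 14.6 CPM in the controls.

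Markers of other liver cells were read beside the Elovl7 values. The 11 cholangiocyte markers summed to 105 to 299 CPM in the controls and 198 to 416 CPM in the libraries labelled knockout, with Krt7 and Cftr under 1 CPM in every library, and 0 of the 9 tested passed. Adipocyte markers summed to 21.2 to 36.4 CPM and 62.4 to 127 CPM, so these groups did not overlap, although Plin1 was at 0 and Adipoq, Lep and Retn were under 1 CPM in every library, and 0 of the 3 tested passed. Most of the higher sum was Cidec, a lipid droplet protein that fatty hepatocytes also make, at 0.557, 1.08 and 21.3 CPM in controls 1 to 3 and 46.0 to 96.0 CPM in the libraries labelled knockout. Sums of the 14 macrophage markers, at 777 to 1395 and 652 to 1284 CPM, overlapped between groups. In edgeR 0 of the 14 passed, and 5 had a log2 fold change above 0 (list median -0.36). At an unadjusted edgeR p under 0.05, 2 were higher and 2 lower, as 9.34% and 8.67% of all genes tested were. Gpnmb, a marker of lipid-laden macrophages, was among those above 0 (edgeR adjusted p = 0.162). It was at 1.82 to 14.1 CPM in the controls and 25.7 to 51.8 CPM in the libraries labelled knockout. The 8 neutrophil markers in the table summed to 331, 83.6 and 17.4 CPM in controls 1 to 3 and 13.2 to 17.6 CPM in the libraries labelled knockout. Sinusoidal endothelial markers, 9 in all, summed to 647 to 736 CPM in the controls and 456 to 634 CPM in the libraries labelled knockout, without overlap, and 0 of the 9 had a log2 fold change above 0, or 4 of the 9 with library sizes alone. Lymphocyte markers summed to 12.0 to 23.5 and 18.2 to 20.5 CPM and overlapped.

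Within the 9 stellate cell markers the sums, at 253 to 395 and 300 to 442 CPM, overlapped, but single genes did not. The fibrillar collagen Col1a1 was at 3.14, 5.25 and 11.4 CPM in the controls and 55.5, 21.2, 48.7 and 37.6 CPM in the libraries labelled knockout (log2 fold change 2.61, SE 0.55, edgeR adjusted p = 0.0726). Col3a1, another collagen, was at 12.5 to 32.3 CPM and then 57.1 to 129 CPM (edgeR adjusted p = 0.0632). In both collagens, as in Elovl7, knockout 1 was the highest and knockout 2 the lowest of the libraries labelled knockout. Lrat, which stores vitamin A, was at 10.6 to 18.2 CPM and then 6.05 to 8.87 CPM (edgeR adjusted p = 0.0620), and Rgs5 also lay lower without overlap. In edgeR 0 of the 9 passed, with 5 at an unadjusted p under 0.05, which 18% of all genes tested had. DESeq2 called 2 higher and 2 lower, where it called 4.18% and 3.45% of all genes, and limma-voom called 1 higher.

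The 12 liver tumour markers summed to 1784 to 3583 CPM in the controls and 1443 to 2424 CPM in the libraries labelled knockout, mostly Lcn2 and Glul. The fetal liver protein Afp was at 1.06, 1.88 and 1.71 CPM in the controls and 16.1, 2.50, 2.32 and 9.17 CPM in the libraries labelled knockout. Igf2, a fetal growth factor, was at 0.141 to 0.534 CPM and then at 3.91, 0.585, 0.622 and 1.09 CPM, and Sox4 at 0.810 to 1.89 CPM and then at 4.32, 2.39, 5.10 and 4.23 CPM. The groups did not overlap for these 3 genes, as for 8.63% of all genes. The imprinted RNA H19 reached 219 CPM in knockout 1 and was at most 15.0 CPM elsewhere, and Afp, Igf2 and H19 were thus highest in the library with the most Elovl7. None of the 12 passed edgeR's test, and Sox4 was nearest (edgeR adjusted p = 0.0537). At an unadjusted edgeR p under 0.05, 3 were higher and 1 lower, as 9.34% and 8.67% of all genes tested were. Of the 12, 7 had a log2 fold change above 0, and DESeq2 called 1 higher. These marker genes were chosen after their values were seen, and the part of these cells, or of tumour tissue, in the Elovl7 difference was not tested.

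The genes around Elovl7 did not pass the test. Within 500 kb of it 5 genes were tested and 0 were called by edgeR, with adjusted p-values of at least 0.133. Pde4d alone had an unadjusted edgeR p under 0.05, which 18% of all genes tested had. The nearest, Ercc8, a DNA repair factor whose gene ends 19040 bases away, was at 2.90 ± 0.414 CPM (SD, n = 3) and 2.87 ± 0.371 CPM (SD, n = 4). Ndufaf2, an assembly factor of respiratory complex I at 55.8 kb, had a log2 fold change of 0.24 (SE 0.15). On the other side, at 164.3 kb, lies the phosphodiesterase gene Pde4d, whose log2 difference was 0.68 (SE 0.21, edgeR adjusted p = 0.133). In GENCODE M21 the only genes that overlap Elovl7 are 2 processed pseudogenes on the opposite strand, which are not among the symbols of the table.

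The 5 genes whose level over the 7 libraries was most like that of Elovl7 were named by the root mean square difference of log2 CPM profiles, each centred on its own mean. They were Tinag, an extracellular matrix protein, at a difference of 0.47, the ubiquitin-like Ubd at 0.50, the drug efflux pump Abcb1a at 0.54, the actin bundling protein Pls1 at 0.58 and the hydrogen peroxide producing oxidase Duox1 at 0.59. Ubd was at 2.94, 2.63 and 3.70 CPM in the controls and at 49.1, 15.6, 50.1 and 46.6 CPM in the libraries labelled knockout. Pls1 was at 0.759, 1.08 and 0.926 CPM and then at 13.4, 4.60, 9.39 and 7.91 CPM. Abcb1a, at 2.06 to 4.31 CPM in the controls and 64.4, 35.4 and 36.5 CPM in knockouts 1, 3 and 4, with a lower value in knockout 2, did not pass the test (edgeR adjusted p = 0.0678). In Ubd, Abcb1a, Pls1 and Tinag, as in Elovl7, knockout 2 was the lowest of the libraries labelled knockout. The genes were chosen for likeness to Elovl7 over these same libraries, so a shared low value follows largely from the choice. Tinag and Duox1 were low, at most 1.90 and 1.18 CPM, and with a smaller prior count of 0.5 in the profile 3 of the 5 genes were named again, Ubd, Abcb1a and Pls1.

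**Figure D2:**
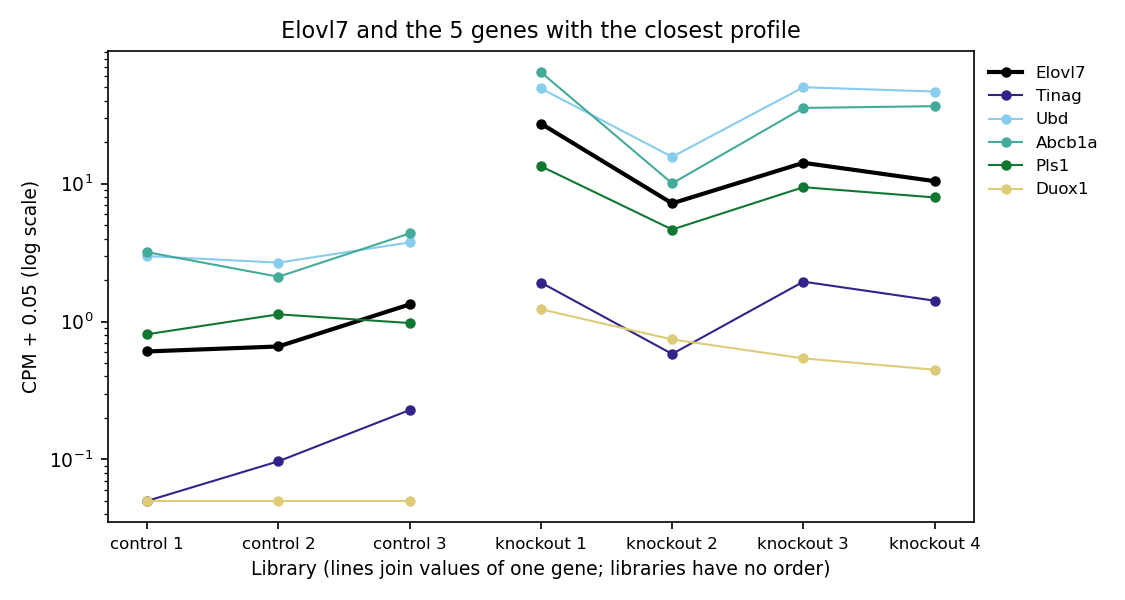
Levels of Elovl7 and of the 5 genes with the closest profile, as CPM plus 0.05 on a log axis, for the 3 controls and the 4 libraries labelled knockout, whose order has no meaning. Elovl7, Ubd, Abcb1a, Pls1 and Tinag are lowest of the libraries labelled knockout in knockout 2, where Elovl7 is at 7.16 CPM. The genes were chosen for likeness to Elovl7 over these libraries, which favours such a shared dip.

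The other members did not pass the test. Of the 9 members, 5 had a log2 fold change above 0, as 48.9% of all genes tested had, and the median over the members was 0.05 against -0.01 over all genes. Apart from Elovl7 no member had an unadjusted p under 0.05, which 18% of all genes tested had (9.34% higher, 8.67% lower). No other member's groups were free of overlap, as those of 16.3% of all genes were (8.63% with the libraries labelled knockout above). The 95% interval of the fold lay within 0.5 to 2 for 6 members. The intervals of Elovl3, at 0.431 to 1.76, and Fads2, at 0.495 to 1.42, reached below that range.

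**Figure D3:**
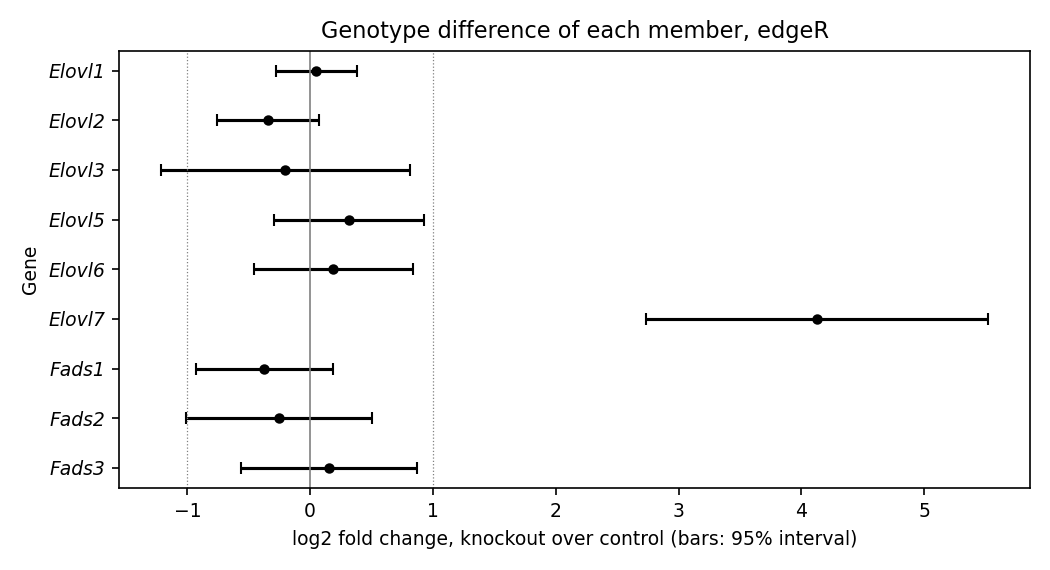
Points give the log2 fold change of each member in the libraries labelled knockout over the controls from the edgeR fit and bars its 95% interval, with dotted lines at a change of 2-fold. Elovl7 lies at 4.13 with an interval of 2.74 to 5.52, and the intervals of the other 8 members include 0.

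Of the elongases of polyunsaturated chains, Elovl5 (chromosome 9, 77917364 to 77984519, plus strand) was at 244, 500 and 547 CPM in controls 1 to 3 and at 464, 686, 466 and 530 CPM in the libraries labelled knockout. Control 1 was far below all the other libraries, and controls 2 and 3 lay within the range of those labelled knockout. The log2 fold change was 0.32 (SE 0.27, edgeR adjusted p = 0.591), and it was -0.028 against control 3 alone. Elovl2 (chromosome 13, 41182381 to 41220405, minus strand), which makes the longest precursors of docosahexaenoic acid, was at 483, 648 and 674 CPM and then at 487, 593, 440 and 378 CPM. Its groups overlapped through control 1, and the log2 fold change was -0.34 (SE 0.19, edgeR adjusted p = 0.371), the smallest p of the members after Elovl7.

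The ratio of Elovl5 to Elovl2 reads lay apart between the groups. It was chosen after the values were seen and was not tested. It is free of library scaling, since both genes come from the same library. Of the other ratios taken, Elovl7 to Elovl1 also lay apart, while Fads1 to Fads2, Elovl6 to Elovl5 and Scd1 to Elovl6 overlapped. How often the ratios of other gene pairs lie apart was not counted. Elovl5 had 0.506, 0.771 and 0.811 reads per Elovl2 read in controls 1 to 3 and 0.952, 1.16, 1.06 and 1.405 in the libraries labelled knockout, so that every library labelled knockout lay above every control. Per kb of exon, Elovl2 was above Elovl5 in each control and below it in each library labelled knockout, at 152 ± 26.1 and 122 ± 46.2 CPM per kb (SD, n = 3) against 120 ± 23.0 and 152 ± 29.7 CPM per kb (SD, n = 4). With the length of the longest transcript in place of all exons, Elovl5 was the higher of the pair in controls 2 and 3 as well.

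Elovl3 (chromosome 19, 46131897 to 46135694, plus strand), an elongase of very long saturated and monounsaturated chains with higher expression in males and a daily rhythm in mouse liver, had the widest spread among controls of the 9 members. It was at 47.0, 105 and 181 CPM in controls 1 to 3 and at 86.7, 114, 80.3 and 105 CPM in the libraries labelled knockout, whose whole range lay inside that of the controls. The highest control was 3.84 times the lowest, and this range on the log2 scale exceeded that of 98.0% of genes. The log2 fold change was -0.20 (SE 0.42, edgeR adjusted p = 0.851), 0.34 when control 3 was omitted and -0.90 against control 3 alone, none of them past the threshold. The labels do not give the sex of the mice. In the same libraries the 22 other male-biased genes summed to 19202 to 24338 CPM in the controls and 11338 to 15216 CPM in those labelled knockout. Of the 22, 2 had a log2 fold change above 0, Mup20 among them (0.56, SE 0.26, edgeR adjusted p = 0.298). With all libraries 0 rose, or 1 without control 3, and 10 fell, where 0.953% of all genes fell. That count was 2 to 13 when 1 library was omitted, at 2 without control 2, 4 without knockout 1 or knockout 3 and 5 without control 1, and it was 0 against control 3 alone. Of 14 tested female-biased genes 3 rose and 0 fell, or 1 to 4 rose when 1 library was omitted, with 1 rising without control 1 or control 2 and 0 against control 3 alone. Without knockout 2, 1 female-biased gene fell. Of 19 clock genes 0 passed edgeR's test, with 4 at an unadjusted p under 0.05, which 18% of all genes tested had. DESeq2 called 1 of them.

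Elovl6 (chromosome 3, 129532355 to 129638495, plus strand), which lengthens palmitate to stearate, was at 40.4, 84.4 and 39.1 CPM in controls 1 to 3 and at 57.8, 58.9, 74.3 and 58.2 CPM in the libraries labelled knockout. Control 2 was the highest and controls 1 and 3 the lowest of the 7, and the log2 fold change was 0.19 (SE 0.28, edgeR adjusted p = 0.778). Scd1, the desaturase that turns stearate into oleate, showed the same order among the controls, at 2808, 7677 and 1231 CPM, and was at 4866 to 8178 CPM in the libraries labelled knockout. Elovl1 (chromosome 4, 118428093 to 118432953, plus strand), which makes the very long chains of sphingolipids, had the narrowest range of the members among the libraries labelled knockout but not among the controls, at 32.7, 43.5 and 27.1 CPM and then at 34.6, 34.7, 38.1 and 35.0 CPM. Its log2 fold change was 0.05 with a 95% interval of -0.28 to 0.38 (edgeR adjusted p = 0.901), and its range among the libraries labelled knockout was wider than that of only 5.58% of genes. It overlaps Cdc20 on the opposite strand by 53 bases, and Cdc20 was at most at 3.08 CPM.

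The 3 desaturases lie together within 155.3 kb of chromosome 19, with Fads3 and Fads2 2.7 kb apart and pointing toward each other and Fads1 81.1 kb beyond Fads2. Fads2 (10062765 to 10101746, minus strand), the first desaturase of the polyunsaturated route, was at 145, 321 and 313 CPM in controls 1 to 3 and at 201, 321, 180 and 169 CPM in the libraries labelled knockout. Control 1 was the lowest of the 7, and knockout 2 reached the level of controls 2 and 3. Fads1 (10182888 to 10196877, plus strand), which acts after the elongation step, was at 258, 517 and 273 CPM and then at 273, 329, 236 and 242 CPM, with control 2 above every other library. Their log2 fold changes were -0.26 (SE 0.33, edgeR adjusted p = 0.743) and -0.37 (SE 0.25, edgeR adjusted p = 0.472). Fads1 had 1.78, 1.61 and 0.872 reads per Fads2 read in controls 1 to 3 and 1.02 to 1.43 in the libraries labelled knockout, so control 3 was the library with fewest Fads1 reads per Fads2 read.

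Fads3 (10041569 to 10060110, plus strand) was near the lower end of what was measured, with 31 to 92 reads in the controls and 80 to 134 reads in the libraries labelled knockout. That is 1.57 to 3.28 CPM and 2.13 to 3.27 CPM, and the log2 fold change was 0.16 (SE 0.32, edgeR adjusted p = 0.844). Of the 16 genes tested within 500 kb of Fads2, the other Fads genes included, 0 passed edgeR's test. An unadjusted p under 0.05 was seen in 2 of them, and in 18% of all genes tested. For Fth1, the ferritin heavy chain, the log2 difference was 0.53 (SE 0.16, edgeR adjusted p = 0.112). For Tmem258, a subunit of the oligosaccharyltransferase, it was -0.44 (SE 0.12, edgeR adjusted p = 0.0988).

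Spread among the controls was a feature of all 9 members. On the log2 scale each of the 9 had a wider range over the 3 controls than the median gene, and 7 of the 9 had one over the 4 libraries labelled knockout. Control 1 was the lowest control for 7 members, and control 3 for Elovl1 and Elovl6. The highest control was control 3 for 5 members and control 2 for Elovl1, Elovl6, Fads1 and Fads2. Controls 1 and 2, whose acute phase scores were 1.47 and 1.48 on the log2 scale, therefore differed from each other in these genes, with Fads1 at 258 against 517 CPM and Elovl5 at 244 against 500 CPM.

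Levels could be compared between genes per kb of exon. In the controls the order ran from Elovl2 and Elovl5 to Fads2, at 78.9 ± 30.2 CPM per kb (SD, n = 3), Fads1 at 72.6 ± 30.2, Elovl3 at 56.2 ± 33.9, Elovl1 at 12.6 ± 3.07, Elovl6 at 8.50 ± 4.01, Fads3 at 0.595 ± 0.238 and Elovl7 at 0.203 ± 0.101. The ranges of neighbours in that order overlapped down to Elovl3, and again for Elovl1 and Elovl6, while Elovl3 and Elovl1, Elovl6 and Fads3, and Fads3 and Elovl7 were apart. In the libraries labelled knockout Elovl7, at 3.67 ± 2.20 CPM per kb (SD, n = 4), stood above Fads3, at 0.669 ± 0.136, in every library and below Elovl6, at 9.68 ± 1.24. With the length of the longest transcript Fads1 stood before Fads2 in both groups. Even in the libraries labelled knockout Elovl7 was the least abundant of the 6 elongases.

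As shares of the summed elongase level per kb, Elovl7 made up 0.0595%, 0.0392% and 0.0738% in controls 1 to 3 and 2.08%, 0.419%, 1.13% and 0.800% in the libraries labelled knockout. Elovl2 and Elovl5 together with Elovl3 made up most of the sum in every library. Elovl2 took 52.2%, 42.1% and 39.3% in the controls and 37.6%, 35.1%, 35.4% and 29.4% in the libraries labelled knockout, and Elovl5 took 29.7%, 36.6% and 35.8% and then 40.3%, 45.8%, 42.3% and 46.5%. For both genes the groups did not overlap in share, while in CPM the groups did not overlap for 16.3% of all genes tested. Both are large parts of the same sum, so a higher share of one lowers that of the other. These shares are thus not separate from the Elovl5 to Elovl2 ratio, and were not tested. The sum itself was 351 ± 105 CPM per kb (SD, n = 3) in the controls and 347 ± 52.7 CPM per kb (SD, n = 4) in the libraries labelled knockout, and that of the 3 desaturases was 152 ± 53.7 and 123 ± 29.8 CPM per kb, differences smaller than the spread among controls.

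**Figure D4:**
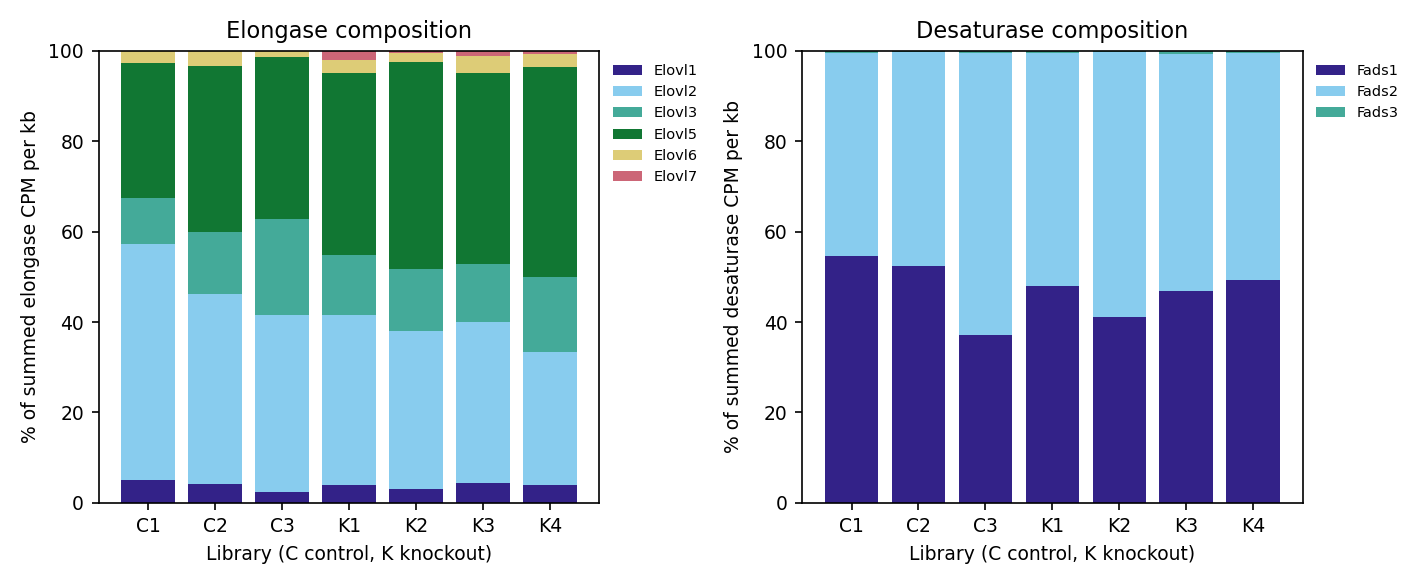
Bars give the share of each gene in the summed CPM per kb of exon of the 6 elongases (left) and of the 3 desaturases (right), by library. Elovl5 takes 29.7% to 36.6% of the elongase sum in the controls and 40.3% to 46.5% in the libraries labelled knockout, and Elovl7 reaches 2.08% in knockout 1.

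Genes of the pathways around the members were taken from 9 lists. Of 117 genes listed, 102 were tested and 0 passed edgeR's test over all genes, with 9 higher and 11 lower at an unadjusted p under 0.05, or 19.6% against 18% of all genes tested. DESeq2, which gave a fold change for 116 of the listed genes, called 4 higher and 6 lower. It called 4.18% and 3.45% of all genes. Of the 102 genes, limma-voom called 0. In edgeR with all libraries, 2 of 102 rose with library sizes alone, and 2 of 116 fell with no filter on low counts. The count also rested on control 3, since in the fit that omitted it 17 of 105 rose and 3 fell. In that fit 9.32% of all genes were called, 4.69% of them higher. Of the 17, 8 were genes of peroxisomal chain shortening. Of 6 tested partners of the elongation cycle, the dehydratase Hacd3 was at 373, 282 and 306 CPM in the controls and 234, 267, 210 and 220 CPM in the libraries labelled knockout, without overlap (log2 fold change -0.46, SE 0.14, edgeR adjusted p = 0.118), and the reductase Hsd17b12 had 0.30 (SE 0.15, edgeR adjusted p = 0.347). The median of that list was 0.12. Elovl4, an elongase of skin and retina that is not among the 9, had 0 reads in 5 libraries and 3 and 4 reads in knockouts 2 and 4. Among 9 tested partners of desaturation, with a median of 0.17, the electron carrier Cyb5a had a log2 fold change of 0.28 (SE 0.16) and the ceramide desaturase Degs1 0.17 (SE 0.11), and neither passed.

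Genes that supply or activate the substrates did not pass edgeR's test with TMM factors, the filter on low counts and all libraries. With library sizes alone 1 gene of activation rose, and with no filter on low counts 1 fell. When control 3 was omitted, 1 gene of supply rose, and 2 of activation rose and 1 fell. DESeq2 called 1 of 12 genes of activation higher and 1 lower. The 11 genes of malonyl-CoA and palmitate supply had a median log2 fold change of 0.01, with Acacb, the acetyl-CoA carboxylase of the mitochondrial surface, at -1.36 (SE 0.68, edgeR adjusted p = 0.374) and the lipogenic regulator Mid1ip1 at -0.23 (SE 0.17). Of 9 tested genes of fatty acid activation, with a median of 0.07, the acyl-CoA synthetase Acsl3 came closest to a call. It was at 32.8, 34.5 and 24.1 CPM in the controls and 22.1, 17.0, 19.7 and 20.1 CPM in the libraries labelled knockout (log2 fold change -0.63, SE 0.15, edgeR adjusted p = 0.0580). The fatty acid transport protein Slc27a4 had 0.50 (SE 0.13, edgeR adjusted p = 0.0790), also with no overlap.

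Of the 15 genes of peroxisomal chain shortening, the step that completes docosahexaenoic acid, 13 lay above 0 and the list median was a log2 difference of 0.25, with the thiolase Acaa1a, which has a close copy in Acaa1b and is therefore uncertain, at 0.54 (SE 0.20, edgeR adjusted p = 0.181). When control 3 was omitted the median was 0.49 and 8 of them rose, in a fit that called 4.69% of all genes higher. Against control 3 alone the median was -0.10 and 0 passed.

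Medians were 0.06 for 11 genes of polyunsaturated phospholipid remodelling and 0.08 for 13 of sphingolipid synthesis, where the smallest p-values belonged to the phospholipase Pla2g6, with a log2 difference of 0.70 (SE 0.28), and the acyltransferase Lpcat4 at 1.31 (SE 0.73), which was at 6.97 CPM in knockout 1 and 1.04 to 1.72 CPM in the other libraries labelled knockout, and to the reductase Kdsr at 0.50 (SE 0.16) and the serine palmitoyltransferase regulator Ormdl3 at 0.34 (SE 0.13). Of 12 genes that turn polyunsaturated fatty acids into eicosanoids, with a median of -0.04, Alox5ap, which presents arachidonic acid to 5-lipoxygenase, was at 10.7, 11.4 and 5.66 CPM in the controls and 4.12 to 5.10 CPM in the libraries labelled knockout (log2 fold change -1.01, SE 0.24, edgeR adjusted p = 0.0620). Ptgds, a prostaglandin D synthase, was at 0.392 to 1.55 CPM in the controls and at 15.1, 1.36, 54.1 and 13.4 CPM in the libraries labelled knockout, so its groups overlapped through knockout 2 (edgeR adjusted p = 0.196).

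Of 16 transcriptional regulators 12 had a log2 fold change below 0 and the list median was -0.24. In edgeR 0 passed, with 6 lower and 2 higher at an unadjusted p under 0.05, as 8.67% and 9.34% of all genes tested were. The 2 higher were Insig2, with a log2 fold change of 0.67 (SE 0.24), and Pparg, with 1.07 (SE 0.38). DESeq2 called 1 regulator higher and 3 lower. Srebf1, which encodes SREBP-1, was at 112, 209 and 116 CPM in the controls and at 87.2, 106, 78.6 and 88.8 CPM in the libraries labelled knockout (log2 fold change -0.69, SE 0.22, edgeR adjusted p = 0.145). Mlxipl, which encodes the carbohydrate response factor ChREBP, was at 228, 258 and 267 CPM and then at 200, 195, 205 and 199 CPM (log2 fold change -0.33, SE 0.11, edgeR adjusted p = 0.138). In both genes every library labelled knockout lay below every control, as in 7.63% of all genes tested. The median of the list was -0.02 against control 3 alone and -0.06 beside an acute phase covariate. With library sizes alone and no TMM factors, where the median of all genes moved to 0.22, it was 0.00.

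**Figure D5:**
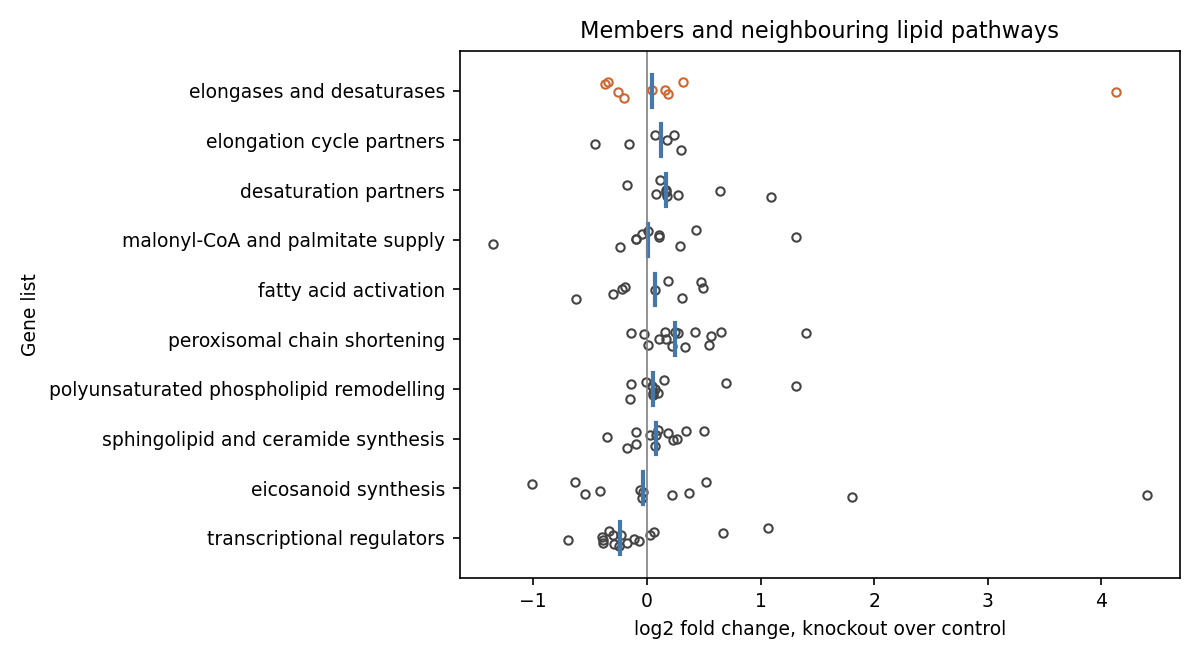
Each point is the log2 fold change of a gene in the libraries labelled knockout over the controls, by list, with blue lines at the list medians and the 9 members in the top row. Elovl7 stands at 4.13, while the medians of the 9 other lists lie between -0.24 and 0.25.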

How the data were processed

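The file deposited by the authors holds raw read counts, a gene symbol per row and a library per column, and 0 columns were left out. Per the labels' protocols, poly(A) RNA went into strand-specific libraries read from a single end over 75 nt. The submitters' processing notes list STAR, DESeq2 and mm10, with no role for any of them. Which counter and annotation were used, and whether strand was, is not given in the sources used here. Reads in no feature (8.62% to 16.3%) and ambiguous reads (0.433% to 0.575%) stayed out of library sizes and tests.

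Groups came from the sample labels. Genotype was tested with edgeR 4.0.16 (R 4.3.3), using TMM factors, filterByExpr at its minimum count of 10, robust glmQLFit and a two-sided quasi-likelihood test. P-values were adjusted by Benjamini-Hochberg over the 13638 genes tested, with 0.05 as threshold. Standard errors and 95% intervals come from that fit. A count of 0 allows up to 3 reads, or 0.061 to 0.126 CPM per library, and covers counting error only. Unlike the other CPM values, these use library sizes without TMM factors. Coordinates and exon lengths are from GENCODE M21 and promoters from RefSeq. Members, lists and alternatives (RLE, upper-quartile or no factors, DESeq2 1.42.0, limma-voom 3.58.1, no robust estimation, other filters, a replicate block, libraries left out, an acute phase covariate) were chosen with earlier results of these data known. All 9 members were named. For each of the 9 pathway lists the 2 genes past the threshold with the smallest p in each direction were to be named or, with none, the 2 with the smallest p. A gene that this rule names in the peroxisomal list is not reported here. Any 2 libraries of the same group differed beyond sampling noise, with a chi-square of at least 36.7 per degree of freedom. The steps were tested on simulated data. Figures used matplotlib 3.10.9.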

Additional observations from a re-analysis of the deposited data

Results flagged for a closer look

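In 50 sets of 4 values, the highest or lowest library labelled knockout was compared with the other 3, and 7 stood out by a gap above Dixon's 95% limit. Chance flags about 1 set in 20, and several share a gene or library. Knockout 3 was the highest for Elovl6, at 74.3 CPM, and for Elovl1, at 38.1 CPM, although the latter stands only slightly above the others. Knockout 2 had the highest number of Scd1 reads per Elovl6 read, at 139, and the highest summed elongase level, at 426 CPM per kb. It also had the highest sum of neutrophil markers, at 17.6 CPM, near the 17.4 CPM of control 3. Elovl3 took 16.5% of the elongase sum in knockout 4. Scd2 was at 61.8 CPM in knockout 1, the library in which Elovl7 was highest.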

How the results depend on the processing

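Elovl7 kept its direction under all 18 alternatives, at log2 3.52 to 4.65, and passed in 11. The count of members called was 1, and it was 0 in limma-voom, with control 3 as the lone control, with the acute phase covariate and at an adjusted p under 0.01, and 0 to 1 over the fits that each left out 1 library. No other member was called under any of the 18. Leaving out 1 library turned the sign of some uncalled members, whose log2 fold change ran from -0.10 to 0.25 for Elovl1, -0.56 to 0.34 for Elovl3 and -0.0093 to 0.65 for Elovl6 (turned without control 3), from -0.55 to 0.023 for Fads1 (without control 2) and from -0.043 to 0.53 for Fads3 (without control 1). Signs also turned against control 3 alone for Elovl5 (-0.028) and Fads3 (-0.37), and with the covariate for Fads3 (-0.17). The count over all genes was 302. It was 498 with library sizes alone (418 higher, 80 lower, against 172 and 130), 1117 in DESeq2, 137 in limma-voom, 123 with the covariate, 9 with control 3 as the lone control, 767 and 27 at adjusted p under 0.1 and 0.01, and 31 to 1310 when 1 library was left out. With 1 library left out, the count was 1310 without control 3 and 31 without control 2. The causes of these differences in count were not tested. Deviations of same-numbered libraries correlated at -0.0509, 0.0690 and -0.139 across genes, so the numbers were not taken as pairs. With a replicate block 74 genes were called, Elovl7 among them (log2 4.14, edgeR adjusted p = 0.0371). At 11 to 36 reads in the controls, the Elovl7 fold carries counting error, whose part in its spread was not tested.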
